A study of Macaca mulatta with 3 samples.

Results

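Of the 24248 regions listed for trimethylated lysine 4 of histone H3 (H3K4me3) in rhesus macaque prefrontal cortex, 810 stood alone, with no other listed peak within 200 kb on either side. They are the subject of what follows and are called isolated peaks. Members had to lie on chromosomes 1 to 9, 11 to 15, 17 or 18, be 600 to 2400 bases wide, and hold no more than 10 times the genome mean of input tags per kb. The first and last peak of a chromosome were left out. On these 16 chromosomes 1010 of 17976 listed peaks met the condition on distance. Of those, 124 were narrower than 600 bases, 75 were wider than 2400, and 1 had too much input. The positions, widths and input density of the listed peaks thus chose the members and are given below only as a description.

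The chromatin came from the prefrontal cortex (superior frontal gyrus), frozen after death, of a single male animal that was 3389 days old. One library was precipitated with an antibody against H3K4me3 and is called the ChIP library, with 10023993 tags. The other, called the input, was sonicated DNA of that tissue taken without precipitation, with 9162762 tags. All cell types of the tissue contributed to both libraries, so a weak peak in all cells and a strong peak in a few cannot be told apart.

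H3K4me3 is written by the SET1 and MLL methyltransferase complexes on the nucleosomes beside active transcription start sites. Promoters rich in unmethylated CpG carry it most strongly, and it can also occur, at lower levels, at active enhancers and at promoters of noncoding transcripts. In gene-rich chromosome arms such starts lie close together, whereas gene-poor regions hold long intervals between them. In the brain, several large genes for neuronal adhesion, synapses and ion channels lie within such gene-poor regions. No gene was assigned to a peak here, because the gene table at hand describes another assembly: on 19 of 21 chromosomes some of its genes lay more than 1 Mb past the end of the tags. The build of the coordinates is not given in the sources used here.

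Isolated peaks were spread over all 16 chromosomes, but unevenly. They made up 3.34% of the list and 5.45% of the 14863 peaks that met every condition but that on distance. Chromosome 5 had 70 of them among 768 listed peaks (9.11%), chromosome 18 had 32 of 420 (7.62%) and chromosome 12 had 45 of 660 (6.82%). Chromosome 14 had the lowest share, 31 of 1478 (2.10%), followed by chromosome 1 with 56 of 2492 (2.25%) and chromosome 7 with 41 of 1486 (2.76%). Of the 16, chromosome 5 had the thinnest list, with 4.22 listed peaks per Mb, and chromosome 14 the densest, with 11.1. Per length the spread was smaller, from 0.233 isolated peaks per Mb on chromosome 14 to 0.435 on chromosome 18.

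The empty space around a member was often far wider than the rule asked. The nearer neighbour lay at a median of 305 kb (interquartile range 236.65 to 453.45 kb), and the farther one at a median of 636 kb. A total of 170 members had no listed peak within 500 kb on either side, and 36 had none within 1 Mb. Some isolated peaks followed each other along the chromosome. The neighbour of a member met the condition on distance on the shared side by the rule itself. The counts that follow are thus a description only. For 422 of the 810 the next listed peak on at least one side was itself an isolated peak, and 84 lay between a pair of them. There were 169 runs of consecutive isolated peaks, of which 51 had at least 3 members. The longest run had 6 members over 3.87 Mb of chromosome 14, from 96320201 to 100189400. Its ChIP tags per peak ranged from 11 to 35 and its input tags from 2 to 14, and 5 of the 6 were enriched by the binomial test described below. By that test 81.6% of all members and 77.4% of all listed peaks were enriched.

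The most remote members lay on chromosome 6. The peak at 20041601 to 20042800 was 2.91 Mb from its left neighbour and 2.90 Mb from its right, and it held 31 ChIP tags and 7 input tags. The ratio of ChIP to input, scaled here and below by the library totals, was 4.05 (exact Clopper-Pearson interval at 95%, 1.75 to 10.9). In steps of 200 bases its ChIP tags numbered 4, 8, 5, 2, 6 and 6, so no single step carried it. Its right neighbour, at 22940001 to 22940800, was also a member, and beyond it no peak was listed for 6.16 Mb. That peak held 23 ChIP tags against 3 in the input, with a ratio of 7.01 (2.12 to 36.5) and a maximum of 10 ChIP tags in 1 inner step. Chromosome 18 supplied 3 of the 8 most remote members. At 34928401 to 34929200 there were 18 ChIP and 2 input tags, at 32494601 to 32495600 there were 14 and 2, and at 59181401 to 59183600 there were 49 and 11. In the first of these 50% of the ChIP tags carried the code U1 or U2, which in this file stands beside U0 and is taken here as a label only. The others of the 8 were on chromosome 15 at 66445401 to 66446600 (24 ChIP and 5 input tags), on chromosome 4 at 99218401 to 99219000 (14 and 4) and on chromosome 5 at 85269201 to 85270600 (36 and 5). All 8 were enriched, where 81.6% of all members and 77.4% of all listed peaks were. The ratios of the 8 ran from 3.20 to 8.23. Their intervals overlapped, so no order among them was resolved at this depth. The chromosome 4 peak, with an adjusted p of 0.0438 by the exact binomial test, lost its call with tags moved 75 bases (0.124) and with distinct U0 tags alone (0.121).

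**Figure D1:**
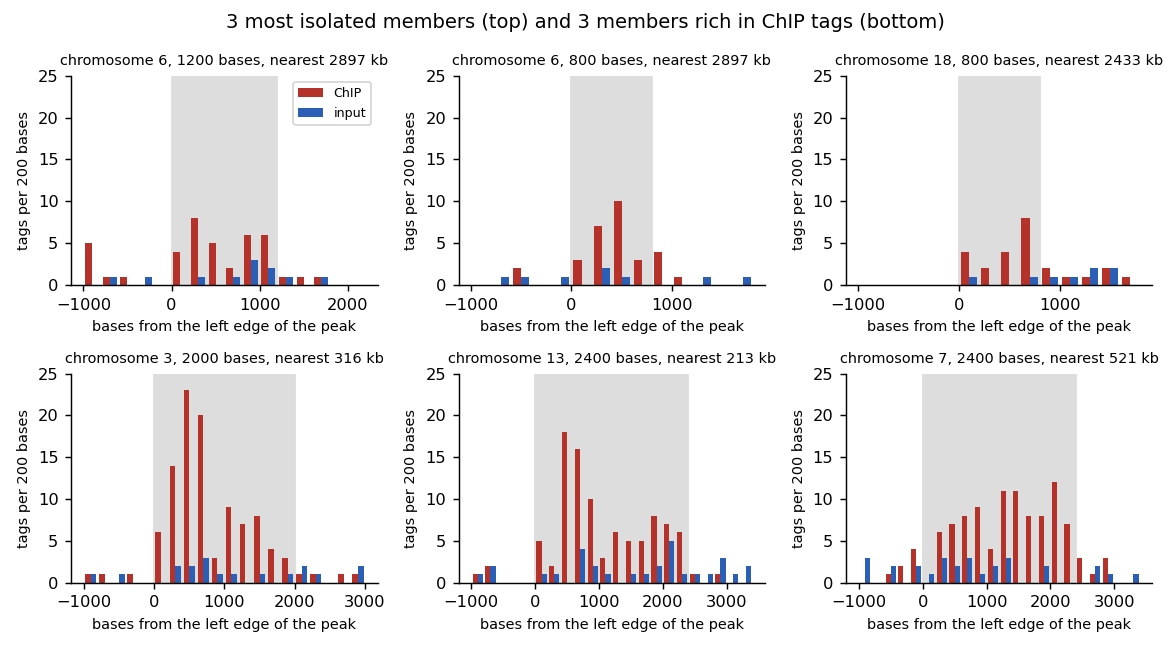
Bars give ChIP tags (red) and input tags (blue) per 200 bases, against bases from the left edge of the peak, for 6 isolated peaks; grey marks the listed peak. In the top row, the 3 most remote members, no step exceeds 10 ChIP tags; in the bottom row, 3 of the 5 members with most ChIP tags, the highest step holds 23.

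As a group, isolated peaks carried a modest but clear excess of ChIP tags. A member held 24 ChIP tags at the median (interquartile range 16 to 39, lowest 7) and 6 input tags (4 to 9), and 4 members held no input tag. Per kb this was 22.5 ChIP tags (median; interval 21.7 to 23.3) against 5 input tags, where the genome means were 3.50 and 3.20. The median ratio was 3.92 (3.75 to 4.11, from order statistics that treat peaks as independent), with an interquartile range of 2.83 to 5.78. Where the input held no tag, 3 tags were assumed, which makes those 4 ratios over both strands lower bounds.

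ChIP and input tags of every listed peak were compared by an exact binomial test, two-sided, and its p-values were adjusted over all 24248 peaks by Benjamini-Hochberg. A peak is called enriched where that adjusted p was below 0.05 and ChIP exceeded input by a ratio of 2 or more. Of the isolated peaks 661 were enriched, or 81.6% (78.8 to 84.2), where 77.4% of all listed peaks were. The list also holds peaks of other widths, chromosomes and input. Of the 14863 peaks that met every condition but that on distance, 80.8% were enriched. The same ChIP tags had put all these peaks on the list, so nothing is read from the direction or size of these shares. A ratio of at least 4 was found at 389 members (48.0%, against 45.7% of the list and 46.7% of the 14863). One of at least 8 was found at 94 (11.6%, against 11.4% and 11.7%). The ratio was below 2 at 27 members. Counted on each strand alone, 593 members (73.2%) had a ratio of at least 2 on both, against 65.9% of the list. The share was 70.1% of those 14863 peaks and 74.2% of peaks whose nearest neighbour was 50 to 200 kb away. These shares are lower bounds, since 3 tags were also assumed on a strand without input, as 106 members had. At 24 members (2.96%) and 1499 listed peaks (6.18%) the ratio fell short only on such a strand. The test compares these 2 libraries, each without a replicate, so its intervals cover counting error only. It also treats tags as independent molecules, which amplified tags are not.

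One member stood far from the rest. On chromosome 6, the peak from 92633401 to 92635600 had 1062 tags in the ChIP library and 9 in the input, whereas no other member held more than 97 ChIP tags. It supplied 4.28% of the ChIP tags of all members, and 65.0% of its tags were coded U1 or U2. Ratios summed over peaks, densities against the surroundings and averaged profiles are therefore given without it, over 809 peaks, unless stated. Without it, 21.2% of the members' ChIP tags (20.7 to 21.7) were coded U1 or U2, against 19.4% in the whole library, and 0.333% repeated a position and strand.

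After that peak, the members with most ChIP tags were all wide. Chromosome 3 at 130622601 to 130624600 held 97 ChIP and 11 input tags, a ratio of 8.06 (4.31 to 16.7). Its tags were gathered on the left, where 3 neighbouring steps of 200 bases held 14, 23 and 20, and the later steps held 3 to 9. Chromosome 13 at 44502801 to 44505200 held 91 and 19, with a similar left-sided maximum of 18. Chromosome 7 at 129549401 to 129551800 held 91 and 17 in an even plateau of 4 to 12 tags over all steps but the first. Chromosome 5 at 159360801 to 159363000 held 88 and 11, and lay over 1 Mb from any listed peak. These 4 peaks had 2 to 7 ChIP tags in the adjoining kb on each side. Their edges came from a list made on the same tags, and not every edge was sharp. On chromosome 7 the first inner step held 0 ChIP tags and the step just outside it held 4.

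Among members with at least 40 ChIP tags, the highest ratios after that of chromosome 6 were 19.2 on chromosome 8 at 107818401 to 107820000 and, equally, on chromosome 13 at 30473601 to 30475000. Each held 42 ChIP tags and 2 input tags, which gave an interval of 4.99 to 164. Chromosome 9 at 111861401 to 111862600 had 73 ChIP tags and 4 input tags, which is a ratio of 16.7 (6.24 to 62.9). As many as 36 of the 73 lay in the last step of 200 bases, and the adjoining kb on that side held 13 more. Chromosome 15 at 55702401 to 55703200 packed 52 ChIP tags into 800 bases, or 65 per kb, a density that no member but the one on chromosome 6 exceeded. Chromosome 3 at 190262801 to 190263400 had the same density, but with 39 ChIP and 19 input tags it was not enriched. The other 3 of the 8 highest ratios, on chromosomes 5, 2 and 6, were 15.1 to 15.5. At the low end, 5 members on chromosomes 5, 7, 9 and 15 had ratios of 1.57 to 1.60, none was enriched, and the interval of each included 1. The one with most tags, on chromosome 5 at 180893601 to 180894800, held 48 ChIP tags and 28 input tags, with input at 7.29 times the genome mean.

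Distance beyond 200 kb did not order the members by strength. The median ratio was 4.01 (3.66 to 4.34) at 200 to 300 kb, 3.66 (3.43 to 4.05) at 300 to 500 kb, 3.88 (3.66 to 4.11) at 500 to 1000 kb and 4.28 (3.43 to 5.48) beyond, where 36 peaks remained. All of these intervals overlapped. Across the 810 members, which share both libraries and are no independent replicates, the Spearman correlation of distance with the ratio was -0.041, and that of distance with width was 0.0044.

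To see where isolated peaks differed from crowded ones, peaks of the same chromosomes, widths and input limit were grouped by their nearest listed peak. Those with a neighbour under 50 kb away, 10407 in number, are called close peaks. Isolated and close peaks had the same medians for ChIP tags (24), input tags (6), width (1000 bases) and ChIP tags per kb (22.5). The median ratio was 3.66 (3.66 to 3.72) in close peaks, a little below the 3.92 (3.75 to 4.11) of isolated ones, and 4.23 (4.11 to 4.29) in the 3646 peaks whose nearest neighbour was 50 to 200 kb away. It thus did not rise steadily with distance. By chromosome the isolated median was above the close one on 8, below on 7 and equal on 1. With tags of 1 strand alone both medians were 3.66. The isolated interval was 3.39 to 3.96 on the plus strand and 3.50 to 3.96 on the minus strand. Ratios of such small counts are coarse, so equal medians do not decide if the sets differ. Enriched peaks made up 79.9% (79.1 to 80.6) of close peaks. With 1 library of each kind there is no test of a difference between sets of peaks, so these values and those below are a description.

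**Figure D2:**
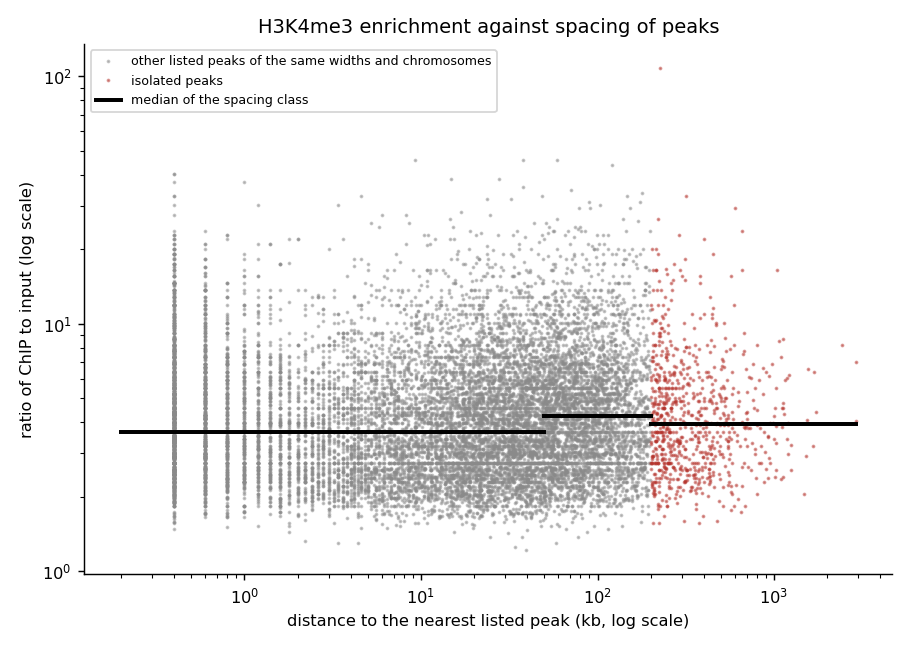
Each point is a peak, with its distance to the nearest listed peak in kb against its ratio of ChIP to input, both on log scales; black bars are medians of the spacing classes. The isolated peaks (red) overlap the others over most of the range of ratios, with medians of 3.66, 3.66, 4.23 and 3.92 from the shortest distances to the longest.

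Summed over peaks, the ratio was 4.06 (3.95 to 4.19) in the 809 isolated peaks and 3.76 (3.73 to 3.79) in close ones. The isolated value was higher on 12 of 16 chromosomes. In the 3646 peaks whose nearest neighbour was 50 to 200 kb away it was higher still, 4.35 (4.29 to 4.41). A summed ratio above that of close peaks was thus not particular to isolated peaks. Width divided the difference between isolated and close peaks. Among peaks of 600 to 800 bases the summed ratio was lower in isolated peaks, 3.50 (3.29 to 3.72) against 3.84 (3.77 to 3.91). At 1000 to 1200 bases it was 3.87 (3.65 to 4.11) against 3.65 (3.60 to 3.71). At 1400 to 2400 bases it was 4.45 (4.26 to 4.64) against 3.78 (3.74 to 3.83). In the widest group 281 of 286 isolated peaks (98.3%) were enriched, against 88.8% of 3739 close ones. Input above 3 times the genome mean was found at 2.10% (0.774 to 4.51) of these wide isolated peaks and at 7.17% (6.36 to 8.04) of the wide close ones, and its part in the difference was not tested. The 3 groups of width were formed after the values had been seen.

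**Figure D3:**
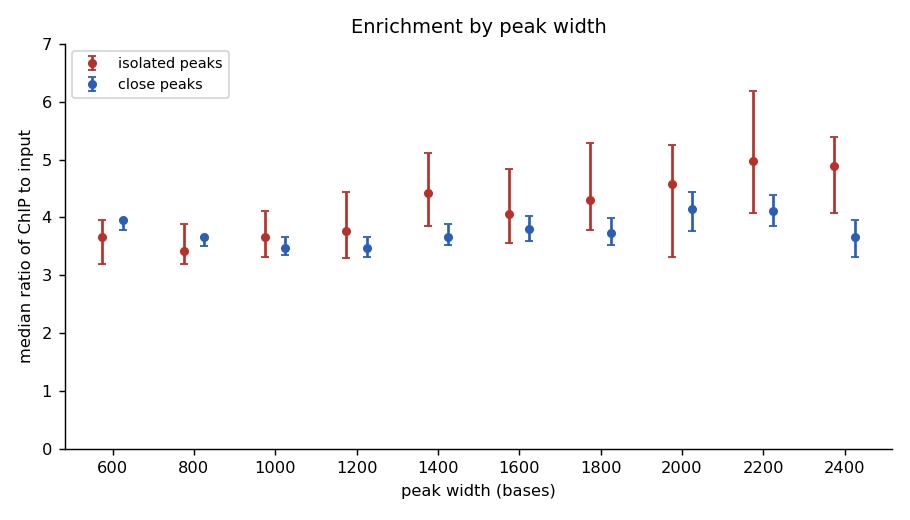
Points are median ratios of ChIP to input by peak width in bases, for isolated (red) and close (blue) peaks, with 95% intervals from order statistics. The isolated medians lie below the close ones at 600 and 800 bases and above them at every greater width, and the intervals overlap at all widths but 2400 bases.

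The sequence around isolated peaks differed from that around close ones in both libraries. In unlisted sequence 10 to 100 kb away and nearest to the peak in question, the ChIP library held 2.83 tags per kb around the 809 isolated peaks and 3.81 around close ones. The input was lower there too, with 2.90 tags per kb against 3.69. On each of the 16 chromosomes the input density was lower around isolated peaks, at 2.67 to 3.17 tags per kb against 3.24 to 3.98. The ratio of ChIP to input in these surroundings was 0.893 (0.889 to 0.897) against 0.943 (0.941 to 0.946), and it too was lower around isolated peaks on all 16. The library totals used for scaling include tags in peaks, so 1 is not the level of unlisted sequence. Over all unlisted windows of 1 kb, at least 1 kb from any peak, the ratio was 0.931. Since the rule kept listed peaks away from members, it favoured a lower ChIP value there.

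Isolated peaks, with the same median ChIP density as close ones, rose further above their surroundings. Their summed ChIP density was 8.69 times that of the surroundings (8.58 to 8.80), against 6.52 times (6.50 to 6.55) for close peaks, and it was higher on all 16 chromosomes, at 7.35 to 9.89 against 5.84 to 8.17. For single members, all 810 included, it was 8.37 times at the median (8.16 to 8.85; interquartile range 6.31 to 11.7), and for the 5519 close peaks with at least 20 kb of such surroundings it was 6.30 (6.20 to 6.44). The input shared in this: inside isolated peaks it was 1.91 times as dense as around them (1.86 to 1.96), against 1.64 (1.62 to 1.65) in close ones. The part of this input difference in the ChIP value was not tested. The rule asked for no listed peak within 200 kb, which favours a low ChIP density around members. Agreement across chromosomes is therefore no separate support. With surroundings of 50 to 100 kb the ChIP value was 9.09 for all 810 members and 7.19 for close peaks.

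**Figure D4:**
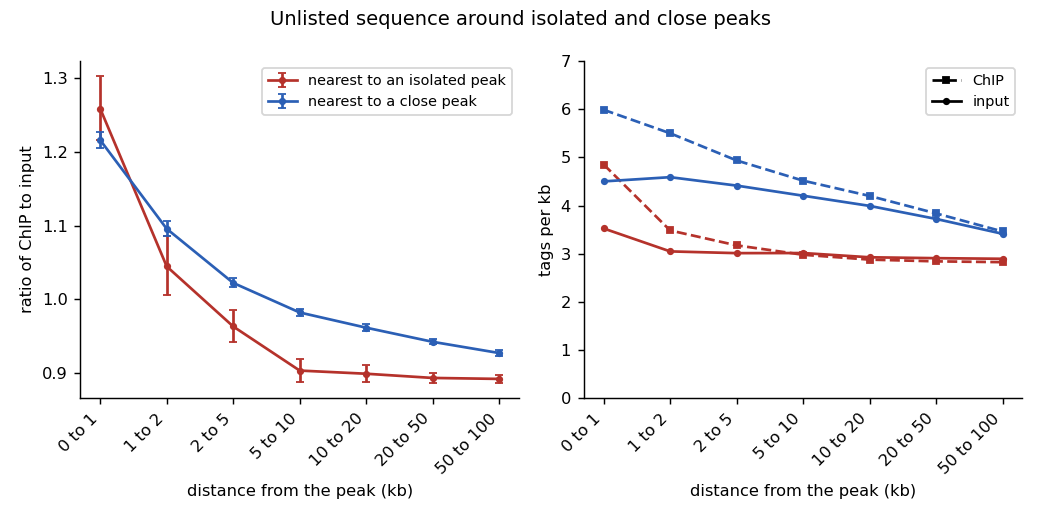
Left, the ratio of ChIP to input in unlisted sequence against distance from the nearest listed peak in kb, with 95% intervals for counting error; right, ChIP and input tags per kb. Around all 810 isolated peaks (red) the ratio is flat near 0.89 from 10 kb outward, whereas around close peaks (blue) it falls from 0.961 at 10 to 20 kb to 0.927 at 50 to 100 kb.

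The signal of isolated peaks, here all 810, ended within a few kb. Within 1 kb of their edges the ratio was 1.26 (1.22 to 1.30), at 1 to 2 kb it was 1.04 (1.01 to 1.09), at 2 to 5 kb 0.963 (0.942 to 0.985) and at 5 to 10 kb 0.903 (0.887 to 0.920). From there it stayed level, at 0.899, 0.893 and 0.892 in the bins of 10 to 20, 20 to 50 and 50 to 100 kb, with overlapping intervals. Around close peaks it was 1.22 within 1 kb and 0.982 at 5 to 10 kb, and it went on falling to 0.927 (0.923 to 0.931) at 50 to 100 kb. Unlisted sequence near a close peak can lie beside several peaks.

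Averaged over members, ChIP tags formed a single broad mound over the centre. It reached 2.65 tags per 100 bases and stayed above the midpoint between summit and surroundings from 450 bases left to 450 bases right of the centre. At the centre it stood 8.01 times above its level at 2.5 to 3 kb, and the input stood 1.87 times above its own. For close peaks the factors were 4.00 and 1.31, with similar central levels (2.60 tags per 100 bases in isolated and 2.69 in close peaks) but 0.672 against 0.324 ChIP tags at 2.5 to 3 kb, where neighbouring peaks can lie. Plus-strand tags were shifted left and minus-strand tags right. Within 1 kb of the centre their mean positions were 90.0 bases apart in isolated peaks and 68.4 in close ones, against 22.6 and 15.8 in the input. That span also takes in tags of the surroundings, which were denser around close peaks. No difference in strand shift is therefore read from it. Within isolated peaks, plus- and minus-strand tags paired most often at a lag of 92 bases, searched from 80 to 250, and in close peaks at 108. These maxima were shallow, at 1.11 times the pairs at a lag of 60 in isolated peaks and 1.08 times in close ones. The lags are thus not resolved from each other.

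**Figure D5:**
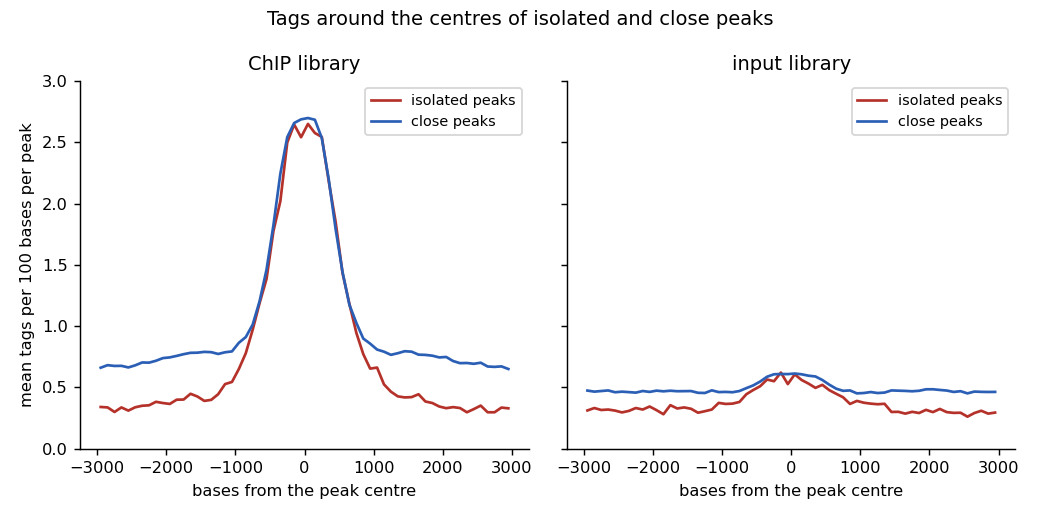
Mean tags per 100 bases per peak against bases from the peak centre, in the ChIP library (left) and the input (right), for 809 isolated (red) and 10407 close (blue) peaks. Both sets reach a central ChIP level near 2.6, and the isolated peaks fall to 0.324 at 2.5 to 3 kb where the close ones fall to 0.672.

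No further enrichment was detected in the space around the members. The list, made from the same ChIP tags, had already left this space without peaks. Few calls were therefore likely in advance, and nothing is read from the counts below. Unlisted windows of 1 kb, at least 1 kb from any peak, were tested by the same binomial test with adjustment over all 2503630 windows holding a tag. Over the genome 4 were higher in ChIP (0.00016%) and 5 higher in input (0.0002%). Of the 149729 windows nearest to an isolated peak and within 100 kb of it, none was higher in ChIP and 1 was higher in input. At an unadjusted p below 0.05, 907 of these windows (0.606%) were higher in ChIP, against 0.736% over all windows. At about 3 tags per kb only strong enrichment would be seen: the window nearest to a call held 15 ChIP tags and no input tag, on chromosome 18 at 63487001 to 63488000, and its adjusted p was 1.

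Some members lay near sequence that neither library covered. Such stretches were not counted for other listed peaks, so it is not known if they are more common near members. At 61 members a stretch of at least 20 kb within 200 kb of the peak held no tag of either library, and at 11 it was at least 100 kb, so no peak could be listed within it. The extreme was chromosome 1 at 124950001 to 124950600, where the surroundings held 0.0278 input tags per kb and a tag-free stretch of 199.5 kb. At 4 members the surroundings held under 1 input tag per kb. Without the 61, the remaining 749 members had the same median ratio of 3.92 and 82.1% were enriched.

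The limits of the rule did not coincide with a step in the ratio. The 118 members with a neighbour at 200 to 220 kb had a median ratio of 3.92, and the 137 peaks just outside, at 180 to 200 kb, one of 4.14. Members of 600 bases had a median ratio of 3.66, as had 97 otherwise alike peaks of 400 bases. Members of 2400 bases had 4.89, and 19 such peaks of 2600 bases had 4.99. The member with most input, on chromosome 3 at 190262801 to 190263400, had 9.90 times the genome mean and a ratio of 1.88. The single peak left out for its input, on chromosome 17 at 40911201 to 40913000, had 27.8 times the mean, with 263 ChIP and 160 input tags and a ratio of 1.50.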

How the data were processed

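Each library was deposited by the authors as aligned tags, 1 per line, with a score that was always 0 and went unused. Tags were therefore counted here from the lines, at their 5' ends. ChIP lines spanned 36 bases with codes U0, U1 and U2, and input lines spanned 38 bases with U0 alone, so the files had not been filtered alike. The deposited peak list carries a p-value for each peak, none of them above 0.001, and no source says if it is adjusted. The submitters' processing notes name TopHat and SICER without version or role. The aligner of the tags is not given in the sources used here, nor is the build. A pool of RNA was not analysed here.

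Distances between peaks are edge to edge, and coordinates are written from 1. Ratios are ChIP over input tags, scaled by the library totals (a factor of 1.09). Tags in surroundings left out listed peaks and 1 kb windows with input over 10 times the mean. Shares and ratios have exact Clopper-Pearson intervals at 95%; for medians, order statistics were used. Counts were also simulated for the 24248 peaks, with counting error only, and 24048 of them were left unchanged. The test called 1 of the unchanged peaks. Of 50 isolated peaks at each true ratio it called 2% at 2, 40% at 4, 86% at 8 and 100% at 16. In the real list 77.4% of peaks were enriched, so the adjustment was stricter in the simulation. These shares therefore do not give the power of the test in the real list. Peaks named by position are the 8 most remote members, the 8 with the highest ratios among those of 40 or more ChIP tags, the 5 with most ChIP tags, the 5 of lowest ratio and those beside the limits of the rule; the peak with the emptiest surroundings and the top window were named after their values were seen. The members and lists were chosen with earlier results of these data known. Versions were matplotlib 3.10.9, pandas 2.3.3, scipy 1.17.1, numpy 2.4.6 and Python 3.11.15.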

Additional observations from a re-analysis of the deposited data

How the results depend on the processing

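No paired analysis was possible because each library has a single replicate. In 46 of 80 alternatives the value kept inside the 95% interval of the reported one (for the number of members, inside a factor of 1.5). Requiring 100 kb gave 2169 members and 500 kb gave 170. The share of isolated peaks enriched was 86.5% with tags moved 75 bases (close peaks 84.8%), 73.2% with distinct U0 tags (close 70.3%), 85.3% scaled by tags outside peaks (close 85.5%), 44.8% on the plus strand (close 43.2%), 45.1% on the minus strand (close 43.4%), 96.7% of those with at least 20 ChIP tags (close 91.5%) and 78.5% at any width. The median ratio was 4.17 (close 3.89) scaled by tags outside peaks and 3.66 on either strand alone, where the close value was 3.66 too. With tags moved it was 3.96 (close 3.79), and with distinct U0 tags it was 3.89 (close 3.66). ChIP tags per kb were 17.7 with U0 tags (close 17.5), 11.2 on the plus strand (close 11.2), 11.3 on the minus strand (close 11.2), 23.8 at any width and, in close peaks, 23.3 with tags moved. ChIP density over the surroundings was 9.05 with all members and 8.69 without the chromosome 6 peak; with U0 tags it was 8.47 (close 6.28), and with surroundings of 50 to 100 kb the close value was 7.19. The alternatives for this density, and those leaving out the chromosome 6 peak or members near tag-free stretches, were chosen after seeing the data. For the 25 named peaks, 140 of 150 alternatives kept the call. On 1 strand alone, 4 of the 8 most remote members lost it, and the chromosome 5 peak at 180893601 to 180894800 gained it on the minus strand. Fewer tags limit calls on 1 strand; otherwise the cause was not tested.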
